A study of Homo sapiens with 4 samples.

Results

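The expression of genes was compared between cells carrying either of 2 CRISPR guides against the AP-1 site of the enhancer EnhAP1-OIS1 and cells carrying a non-targeting guide. A gene entered the comparison when its mean over the 4 deposited libraries reached 2 RPKM (reads scaled to the length of the transcript and the size of the library), which kept 7596 of 12033 genes. A difference was taken up when both guides lay on the same side of the control, which held for 6355 genes. Of the other genes, 948 lay in opposite directions with the guides and 293 had the control's value with at least 1 guide.

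The cells were BJ-indRAS G12V, human foreskin fibroblasts immortalized with hTERT, whose oncogenic RAS transgene is turned on by 4-hydroxytamoxifen (4-OHT). All libraries came from cells that had received 4-OHT for 14 days, so cells without active RAS are not part of the comparison. sgRNA-NT carried the non-targeting guide, and sgRNA-AP1 69 and sgRNA-AP1 71 each carried a separate guide against the enhancer. Each condition is 1 library of transduced cells, without replicates, and the 3 libraries compared are called the control, guide 69 and guide 71 below. The other library, with a guide against FOXF1 itself (sgRNA-FOXF1), entered only the mean by which genes were kept. Both ratios are taken to the same sgRNA-NT library, so any deviation of that library enters both of them in the same direction.

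Oncogenic RAS first drives fibroblasts to divide and then into a lasting arrest called oncogene-induced senescence, in which the cells enlarge, expand their lysosomes and secrete proteases and cytokines. AP-1 is a family of dimers of FOS, JUN and ATF proteins that binds a short palindrome and acts downstream of RAS and ERK at many enhancers. FOXF1 encodes a forkhead factor that mesenchymal cells need for lung and gut development, and FENDRR is the long non-coding RNA that starts beside it in the opposite orientation.

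The site that both guides were designed against lies at chr16:86421275-86421281 on GRCh37 (hg19), at the place the study's supplementary material gives for the element. It is shown because both guides were designed to cut at these bases (editing was not measured in these files), with the 7 letters of the AP-1 motif in capitals and 30 bases of reference sequence on either side (chr16:86421245-86421311, plus strand). No annotated gene covers it, and the nearest coding genes end or start 465063 bp to the left (IRF8) and 122852 bp to the right (FOXF1).
AP-1 site: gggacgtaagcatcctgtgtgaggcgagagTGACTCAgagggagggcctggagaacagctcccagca
The reference holds 4 Cas9 target sites whose cut falls within 5 bases of the motif, all on the plus strand, with the NGG motif that Cas9 needs in capitals below. They are shown to place the possible cuts, and which of them the guides match was not analysed here. Cas9 cuts inside the motif at the first and second sites, 2 bases beyond it at the third and 3 bases beyond it at the fourth.
Cas9 site at chr16:86421263-86421285: gtgaggcgagagtgactcagAGG
Cas9 site at chr16:86421264-86421286: tgaggcgagagtgactcagaGGG
Cas9 site at chr16:86421267-86421289: ggcgagagtgactcagagggAGG
Cas9 site at chr16:86421268-86421290: gcgagagtgactcagagggaGGG

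The libraries carried fibroblast genes. All 15 fibroblast markers were in the table, and they summed to 3649.9 RPKM in the control, 5261.8 under guide 69 and 5453.9 under guide 71. Single markers differed in direction, with a median log2 ratio of 0.09 over the 14 compared. With both guides, 2 (14.3%) were at least 1.5-fold higher and 3 (21.4%) lower, against 6.78% and 8.64% of all genes. Of the defining markers of other cell types, the epithelial EPCAM and CDH1, the endothelial PECAM1 and VWF, the leukocyte PTPRC, the muscle MYOD1 and the melanocyte MLANA were not listed in the table. Those lists had 2 of 13 epithelial, 2 of 9 endothelial, 1 of 10 leukocyte, 2 of 14 muscle and 2 of 12 neuronal and melanocyte markers in it. The deposited values do not give read numbers, so the depth behind each value is unknown. In bulk RNA, fewer cells of a type and less RNA per cell cannot be told apart.

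FOXF1, the nearest coding gene to the right of the site, stood at 29.6 RPKM in the control, 11.1 under guide 69 and 7.8 under guide 71. Its log2 ratio to the control averaged −1.67 ± 0.36 (SD between the guides, n = 2), with both guides below the control. FENDRR, whose start lies 121430 bp from the site, stood at 4.7, 1.8 and 1.6 RPKM in the same order. Within 1 Mb on either side, 10 genes were listed in the table, 9 were above the lowest value the table holds (1 RPKM) and 7 entered the comparison.

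Genes farther out differed in direction. GINS2, a subunit of the replicative helicase complex 697596 bp to the left, stood at 3.0 RPKM in the control, 5.5 under guide 69 and 7.8 under guide 71. COX4I1, a respiratory chain subunit, stood at 63.6, 79.9 and 84.8 RPKM in the same order. MAP1LC3B, which encodes an LC3 protein of autophagosomes and starts 996284 bp to the right, was lower with both guides, at 40.3 RPKM against 28.2 and 26.1. FOXC2, the next forkhead gene, was listed at the lowest value in every library, and FOXL1 stood between 1.5 and 1.6 RPKM.

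Chromosome 16 as a whole had medians near those of all genes. Its 393 genes had median log2 ratios of 0.06 under guide 69 and 0.03 under guide 71, against 0.07 and 0.08 over all genes compared. It held 17 genes that both guides placed 2-fold or more below the control (4.33%, against 2.98% of all genes compared) and 0 above it, against 1.07% of all genes. Beyond the site toward the end of the chromosome, 3 of 26 genes compared were at least 2-fold lower, against 2.98% of all genes. They were FENDRR, FOXF1 and PIEZO1. PIEZO1, a mechanically gated channel that starts more than 1 Mb from the site, stood at 49.0 RPKM in the control, 19.0 under guide 69 and 11.2 under guide 71.

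Across the 7596 genes compared, 81 (1.07%) lay 2-fold or more above the control with both guides and 226 (2.98%) lay 2-fold or more below it. A difference of at least 1.5-fold was met by 515 genes (6.78%) upward and by 656 genes (8.64%) downward. Counting every size, 3627 genes (47.7%) were higher with both guides and 2728 (35.9%) lower. The guides did not differ from the control by the same amount: guide 71 was the farther one for 56 of the 81 higher and for 202 of the 226 lower genes. Over all 7596 genes the log2 ratios also spread more widely with guide 71 (SD 0.63) than with guide 69 (SD 0.48). The counts are therefore not particular to the genes past 2-fold. The threshold on the mean fell between BLOC1S6, a subunit of a complex of lysosome-related organelles with a mean of 2.0 RPKM, just inside, and ZFYVE9, a membrane-bound partner of SMAD proteins with 1.975, just outside.

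A test per gene cannot decide here, because it has to treat 2 separate guides as replicates and has 1 control library. limma, fitted with the guides as a group of 2 against 1 control library, made 0 calls at a Benjamini-Hochberg adjusted p under 0.05 in either direction (0%). Its smallest adjusted p was 0.2057, and 1032 genes (13.6%) were higher and 809 (10.7%) lower at an unadjusted p under 0.05. The fit had 1 residual degree of freedom, the difference between the guides, and 251 genes had equal values in both. It made 649 calls upward and 769 downward when those genes were left out, and 52 and 304 when every gene of the table was fitted, so the differences below are given as sizes in these libraries.

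**Figure D1:**
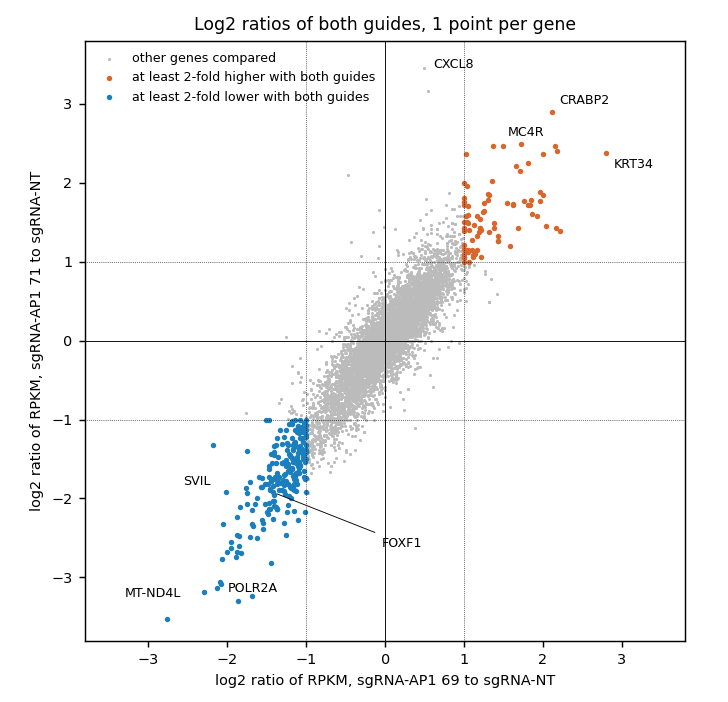
Log2 ratio to sgRNA-NT with guide 69 (horizontal axis) and guide 71 (vertical axis) for the 7596 genes compared, 1 point per gene, with dotted lines at a 2-fold difference. The ratios share the sgRNA-NT library. The 81 higher (orange) and 226 lower (blue) genes are marked, ADAMTS19 is the lowest point, and CXCL8 lies far above the control with guide 71 alone.

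Secreted and extracellular products were among the genes with the largest upward differences. SERPINB2, an inhibitor of plasminogen activators, stood at 39.1 RPKM in the control, 113.5 under guide 69 and 130.6 under guide 71. LUM, the collagen-binding proteoglycan lumican, stood at 2.3, 8.3 and 7.9 RPKM in the same order. GREM1, a secreted antagonist of BMP ligands, stood at 1.6, 4.9 and 5.3 RPKM. In each of these genes the control was the lowest library and the guides lay close together.

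Of the other highest genes, G0S2, an inhibitor of triglyceride breakdown, stood at 8.7 RPKM in the control, 22.5 under guide 69 and 48.1 under guide 71. IDH2, the mitochondrial NADP-dependent isocitrate dehydrogenase, stood at 7.3, 18 and 25 RPKM. These genes were farther from the control with guide 71, whereas KRTAP3-1, a keratin-associated protein, was highest with guide 69, at 14.2, 65.7 and 37.1 RPKM.

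S100A3, a calcium-binding protein of the S100 family, stood at 3.4 RPKM in the control, 8.1 under guide 69 and 10.6 under guide 71. S1PR3, a receptor for sphingosine-1-phosphate, stood at 2.1, 4.3 and 8.2 RPKM. TMEM119, a membrane protein known from bone-forming cells and microglia, stood at 6.6, 15.6 and 20.5 RPKM. TNNT1, a slow skeletal muscle troponin and the single muscle marker that could be compared, was higher as well, at 4.7, 11.2 and 15.8 RPKM, while MYOD1, MYOG and 10 other markers of the 14 on that list were not listed in the table.

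**Figure D2:**
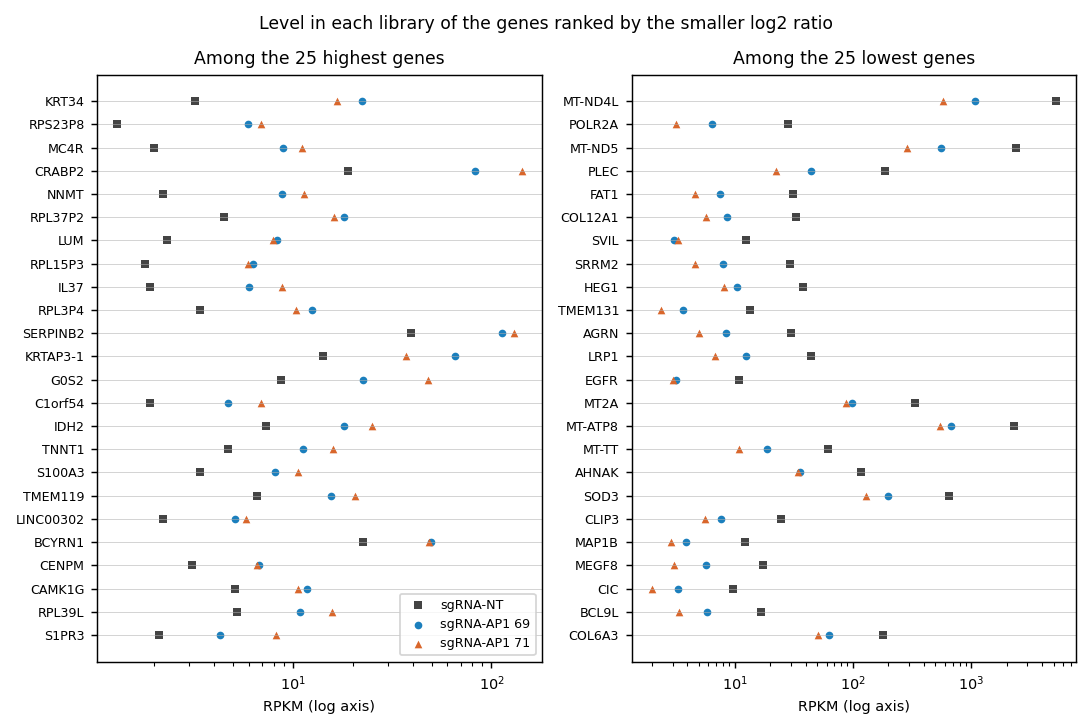
RPKM (log axis) in the control (squares), guide 69 (circles) and guide 71 (triangles) of genes among the 25 highest and the 25 lowest whose mean reached 5 RPKM, ranked by the smaller of the log2 ratios of the guides. In every row both guides lie on the same side of the control, as the ranking requires.

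Among the lowest genes were large proteins of the nucleus. SRRM2, a scaffold of nuclear speckles and the spliceosome, stood at 29.5 RPKM in the control, 8.0 under guide 69 and 4.6 under guide 71. CIC, a repressor that ERK inactivates, stood at 9.7, 3.3 and 2.0 RPKM. BCL9L, a coactivator of beta-catenin, stood at 16.9, 5.8 and 3.4 RPKM. The control was the highest of the libraries by more than 2-fold in all of them.

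Receptors and large membrane proteins lay among the lowest genes too. EGFR, the epidermal growth factor receptor, stood at 10.9 RPKM in the control, 3.2 under guide 69 and 3.0 under guide 71. LRP1, an endocytic receptor for proteases and lipoproteins, stood at 44.6, 12.6 and 6.9 RPKM. AGRN, the heparan sulphate proteoglycan agrin, stood at 30.3, 8.4 and 5.0 RPKM. For LRP1 and AGRN the guides themselves were more than 1.5-fold apart, with guide 71 the lower, whereas for EGFR they lay together.

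MT2A, a metallothionein that binds zinc and copper, lay far below the control, at 334.2 RPKM in the control, 99.3 under guide 69 and 87.7 under guide 71. MAP1B, a microtubule-associated protein, stood at 12.2, 3.9 and 2.9 RPKM. ADAMTS19, a secreted metalloprotease, stood at 11.5 RPKM with the control and 1.7 with guide 69 and was listed at the lowest value with guide 71, so it was at least 11.5-fold lower there.

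Some genes were above the lowest value of 1 RPKM on one side alone. Of the 12033 genes in the table, 248 were at the lowest value in the control and above it with both guides. A similar number, 269, showed the reverse, and 2421 were at the lowest value in all 4 libraries. That value also stands for any level below it, so such genes need not be absent. IFIT1, an interferon-induced RNA-binding protein, stood at 3.4 RPKM with both guides and was therefore at least 3.4-fold higher. SCG5, a secretory granule chaperone, stood at 3.3 and 5.6 RPKM. On the other side, SEMA6D, a membrane semaphorin, stood at 3.1 RPKM with the control, and BPTF, a subunit of a nucleosome remodelling complex, at 2.9. Of the 81 genes at least 2-fold higher, 19 were at the lowest value in the control, so their folds are lower bounds.

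The pathway groups below are described by how many members were at least 1.5-fold higher or lower with both guides, to be read against 6.78% and 8.64% of all genes, and by the median over members of the mean log2 ratio of the guides, which was 0.07 over all genes. The 43 lists name 1422 genes, of which 1322 were in the table and 1113 passed the threshold on the mean, and the counts are of those that passed it. Because the log2 ratios moved with transcript length (given further on), the median after removing a smooth curve in log transcript length is given beside each median, as the length-corrected median. Counts are without this correction unless stated. Over all genes, 326 were higher and 521 lower by 1.5-fold after it.

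Genes of DNA replication and mitosis were higher with both guides. Of 35 replication genes, 13 lay at least 1.5-fold above the control and 0 below, with a median of 0.62 and a length-corrected median of 0.59. After the length correction, 8 were higher and 0 lower. RPA3, the smallest subunit of the single-strand binding complex, stood at 3.6 RPKM in the control, 6.5 under guide 69 and 9.0 under guide 71. CDC45, a part of the replicative helicase, stood at 2.7, 4.5 and 6.0 RPKM. PCNA, the sliding clamp of the replication fork, was slightly lower with both, at 43.2, 38.2 and 40.5 RPKM.

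Of 41 mitosis genes, 13 lay at least 1.5-fold above the control and 0 below, with a median of 0.68 and a length-corrected median of 0.50. After the length correction, 6 were higher and 0 lower. PTTG1, the securin that restrains chromosome separation, stood at 15.3 RPKM in the control, 28.2 under guide 69 and 42.8 under guide 71. CCNB2, a mitotic cyclin, stood at 4.2, 7.5 and 10.2 RPKM. The median of the list was 0.95 with guide 71 and 0.45 with guide 69, so the guides differed in size. TOP2A, the topoisomerase that untangles chromosomes, stood at 5.1, 5.9 and 4.9 RPKM, with the guides on either side of the control.

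The regulators of G1 differed in direction. Their median was 0.28, the length-corrected median 0.08. Of 14 compared, CDKN2C, a CDK4 and CDK6 inhibitor, was the single member at least 1.5-fold higher, at 1.3, 2.6 and 2.9 RPKM, and CCND1, the cyclin that activates these kinases, the single member lower, at 775.8, 488.1 and 364.0 RPKM. CDKN1A, the inhibitor p21, stood at 736.2 RPKM in the control, 627.8 under guide 69 and 512.0 under guide 71. Among 29 targets of p53, 1 was higher and 2 were lower by 1.5-fold, with a median of −0.06 and a length-corrected median of −0.10. MDM2, the ligase that degrades p53, was one of the lower ones, at 6.2, 3.7 and 2.7 RPKM.

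HRAS and genes induced by ERK were lower. HRAS stood at 829.4 RPKM in the control, 446.4 under guide 69 and 427.4 under guide 71, and reads of the transgene and of the cell's own gene cannot be told apart. Of 21 genes induced by ERK or feeding back on it, 8 were at least 1.5-fold lower and 0 higher, with a median of −0.41 and a length-corrected median of −0.49. FOSL1, an AP-1 subunit (FRA-1) that ERK stabilizes, stood at 126.6, 47.7 and 46.2 RPKM. SPRY4, a feedback inhibitor of receptor signalling to RAS, stood at 77.8, 34.5 and 29.9 RPKM.

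Other members of that group lay nearer to the control. DUSP6, the phosphatase that inactivates ERK, stood at 80.8 RPKM in the control, 54.2 under guide 69 and 68.2 under guide 71. ETV5, an ETS factor induced by ERK, stood at 15.2, 8.9 and 9.1 RPKM. IER3, an immediate early gene, was near the control with guide 69 and above it with guide 71, at 63.8, 60.2 and 147.1 RPKM. HRAS was lower with both guides, as were DUSP6 and ETV5 but not IER3 under guide 71. The part of HRAS in the levels of these genes was not tested.

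FOSL1 had the lowest mean log2 ratio of the AP-1 and ATF family (−1.43) and was its single member at least 2-fold lower. Of 14 members, 2, FOSL1 among them, were at least 1.5-fold lower and 1 higher. The median was −0.18 and the length-corrected median −0.29. FOSL2, which encodes the related subunit FRA-2, stood at 5.4 RPKM in the control, 8.5 under guide 69 and 12.1 under guide 71. JUN stood at 30.8, 28.9 and 25.1 RPKM and JUNB at 31.3, 31.6 and 36.2, both within 1.5-fold of the control. Of 10 forkhead genes, with a median of −0.13 and a length-corrected median of −0.08, FOXF1 was the single one past 1.5-fold, and its relative FOXF2 stood at 11.4, 8.9 and 6.4 RPKM.

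Secreted genes of the senescent state were lower in part. Of 28 compared, 8 were at least 1.5-fold lower and 1 higher, with a median of −0.57 and a length-corrected median of −0.62. The guides taken alone had smaller medians, −0.43 for guide 69 and −0.36 for guide 71, and with every gene of the table the median was 0. IGFBP7, a secreted binder of insulin-like growth factors, stood at 376.2 RPKM in the control, 151.4 under guide 69 and 128.7 under guide 71. PLAU, the protease urokinase, stood at 1110.8, 543.9 and 707.6 RPKM, and TIMP2, an inhibitor of metalloproteases, at 419.2, 189.8 and 130.2.

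Of this list, CXCL8, CXCL1 and IL1B were more than 2-fold above the control with guide 71 and within 1.5-fold of it with guide 69. CXCL8, the neutrophil chemokine interleukin-8, stood at 32.0 RPKM in the control, 45.2 under guide 69 and 350.2 under guide 71. CXCL1, a related chemokine, stood at 16.5, 24.1 and 148.2 RPKM. IL1B, the cytokine interleukin-1 beta, was near the control with guide 69 and more than 2-fold above it with guide 71, at 114.5, 113.2 and 311.8 RPKM. CCL2, the monocyte chemokine, was the single member at least 1.5-fold higher with both, at 5.0, 10.2 and 25.7 RPKM, whereas the collagenase MMP1 was lower with guide 69 alone, at 978.0, 408.1 and 1012.7 RPKM.

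NF-kB is a factor that drives these cytokines. Of 15 of its subunits and feedback genes, 0 were past 1.5-fold with both guides, with a median of 0.02 and a length-corrected median of 0.10. The median was −0.08 for guide 69 and 0.27 for guide 71, a difference that was not tested. NFKBIA, the inhibitor that NF-kB itself induces, stood at 19.9 RPKM in the control, 25.6 under guide 69 and 49.6 under guide 71. SOD2, the mitochondrial superoxide dismutase, stood at 6.5, 4.8 and 15.4 RPKM. The subunit RELA was at 16.9, 13.9 and 12.5 RPKM, below the control with both.

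Genes stimulated by interferon were partly higher. Of 21 compared, 6 lay at least 1.5-fold above the control and 0 below, with a median of 0.40 and a length-corrected median of 0.31. After the length correction, 4 were higher and 2 lower. IFI35, an interferon-induced leucine zipper protein, stood at 7.0 RPKM in the control, 14.3 under guide 69 and 20.9 under guide 71. ISG15, a ubiquitin-like modifier, stood at 27.0, 41.5 and 57.8 RPKM, and PSMB8, a subunit of the immunoproteasome, at 18.5, 31.0 and 38.3. IFITM3, a membrane protein that blocks viral entry, was below the control at 270.9, 218.1 and 227.8 RPKM.

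MHC class I genes did not rank with them. Of 12 compared, 0 lay at least 1.5-fold above the control and 2 below, with a median of −0.24 and a length-corrected median of −0.43. HLA-C, a heavy chain, stood at 170.0 RPKM in the control, 112.2 under guide 69 and 103.7 under guide 71, while HLA-E stood above the control at 127.5, 156.2 and 183.9.

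Lysosomal genes were lower. Of 42 compared, 17 were at least 1.5-fold lower and 0 higher, with a median of −0.59 and a length-corrected median of −0.63. PSAP, the precursor of the saposins that activate sphingolipid breakdown, stood at 484.5 RPKM in the control, 248.3 under guide 69 and 182.1 under guide 71. LAMP1, a major protein of the lysosomal membrane, stood at 92.4, 49.9 and 35.8 RPKM.

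Cathepsins, the lysosomal proteases, differed among themselves. CTSB stood at 200.4 RPKM in the control, 105.3 under guide 69 and 96.8 under guide 71, whereas CTSL stood above the control at 228.0, 300.4 and 301.1. GLB1, the beta-galactosidase whose activity is used to stain senescent cells, stood at 28.8, 22.3 and 17.6 RPKM, lower with both guides but within 1.5-fold with guide 69. LIPA, the acid lipase, was above the control at 38.9, 61.5 and 52.1 RPKM. Of 27 autophagy genes, 2 were lower and 0 higher by 1.5-fold, with a median of 0.05 that turned to −0.12 after the length correction.

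Matrix and adhesion genes were lower in several groups. Of 9 fibrillar and fibril-associated collagens, 6 were at least 1.5-fold lower and 0 higher, with a median of −1.07 and a length-corrected median of −0.70. Of 14 basement membrane genes, 10 were lower and 0 higher, with a median of −0.98 and a length-corrected median of −0.79. NID1, which links laminin to collagen IV, stood at 42.5 RPKM in the control, 16.4 under guide 69 and 12.1 under guide 71. SPARC, a collagen-binding glycoprotein, lay above the control at 818.3, 1012.7 and 900.7 RPKM, and so did the fibrillar collagen COL3A1 at 32.3, 40.3 and 41.4.

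Of 24 matrix glycoproteins, 13 were at least 1.5-fold lower and 1 higher, with a median of −0.87 and a length-corrected median of −0.72. FN1, fibronectin, stood at 151.4 RPKM in the control, 53.9 under guide 69 and 33.1 under guide 71. LUM was the higher member, with the values given above. Of 19 enzymes and chaperones that modify collagen, 3 were lower and 1 higher, with a median of −0.31 and a length-corrected median of −0.21. The higher one, LOXL4, a lysyl oxidase that cross-links collagen, stood at 8.2, 15.1 and 22.9 RPKM.

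Of 29 adhesion receptors and cytoskeletal linkers, 16 were at least 1.5-fold lower and 0 higher, with medians of −0.84 and −1.09 under the guides and a length-corrected median of −0.61. SVIL, the actin-binding supervillin, stood at 12.5 RPKM in the control, 3.1 under guide 69 and 3.3 under guide 71. ITGB1, the beta chain shared by many integrins, stood at 283.1, 120.6 and 96.1 RPKM, and its partner ITGA2, a collagen receptor, at 49.0, 19.2 and 14.2. The focal adhesion proteins TLN1 (92.8, 66.1 and 66.0 RPKM) and VCL (69.7, 50.8 and 49.6 RPKM) were lower with both guides by less than 1.5-fold.

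Contractile genes lay nearer to the control. Of 13 compared, 2 were lower and 0 higher by 1.5-fold, with a median of 0.05 that turned to −0.18 after the length correction. ACTA2, smooth muscle actin, stood at 23.2 RPKM in the control, 28.0 under guide 69 and 25.1 under guide 71, and the actin-binding TAGLN at 111.9, 215.6 and 159.5. Of 22 targets of YAP and TEAD, factors that respond to tension, 6 were lower and 1 higher, with a median of −0.53 and a length-corrected median of −0.33. CTGF, a classical target, stood at 41.0, 31.5 and 24 RPKM.

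Of 17 genes of TGF-beta and BMP signalling, 7 were lower and 2 higher by 1.5-fold, with a median of −0.43 and a length-corrected median of −0.38. With guide 71 alone the median was −0.74. TGFB1, the ligand, stood at 22.9 RPKM in the control, 12.5 under guide 69 and 11.2 under guide 71, and SKI, a corepressor that restrains SMAD proteins, at 12.8, 6.0 and 4.2. The higher members were GREM1 and BMP4, a BMP ligand at 3.0, 5.0 and 6.0 RPKM. ID1, a target of BMP signalling, was above the control with guide 69 and below it with guide 71, at 113.2, 132.8 and 67.7 RPKM. Of 12 WNT genes, with a median of −0.31 and a length-corrected median of −0.32, 1 was lower and 1 higher, the latter being SFRP1, a secreted WNT antagonist at 39.9, 65.3 and 88.5 RPKM.

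Chromatin modifiers included some of the lowest ratios. Of 27 compared, 8 were at least 1.5-fold lower and 0 higher, with a median of −0.47 and a length-corrected median of −0.21. KMT2D, a histone H3 methyltransferase of enhancers, stood at 6.7 RPKM in the control and 1.8 with guide 69 and was listed at the lowest value with guide 71. EP300, a histone acetyltransferase, stood at 5.1 and 1.6 RPKM and at the lowest value in the same order. HDAC1, a histone deacetylase, was near the control at 19.8, 19.4 and 24.3 RPKM. Of 34 RNA polymerase II and Mediator subunits, the largest subunit POLR2A was the single one lower by 1.5-fold and 2 were higher, with a median of 0.23 and a length-corrected median of 0.02.

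Protein folding in the endoplasmic reticulum was lower in part. Of 28 chaperones and stress genes, 9 were at least 1.5-fold lower and 0 higher, with a median of −0.32 and a length-corrected median of −0.39. HSP90B1, the chaperone GRP94, stood at 104.5 RPKM in the control, 55.1 under guide 69 and 50.6 under guide 71. HSPA5, the chaperone BiP, stood nearer to the control at 379.8, 315.9 and 334.2 RPKM. XBP1, a factor of the unfolded protein response, was above the control at 31.0, 39.3 and 40.1 RPKM. Of 25 cytosolic and small heat shock proteins, 1 was higher and 1 lower, with a median of 0.12 that turned to −0.02 after the length correction.

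Metabolic groups mostly lay near the median of all genes. Of 31 genes of the ATF4 amino acid response, 4 were lower and 1 higher by 1.5-fold, with a median of −0.08 and a length-corrected median of −0.15. The lowest was SLC7A11, the cystine transporter, at 7.3 RPKM in the control, 2.5 under guide 69 and 1.4 under guide 71. The higher one was PHGDH, which starts serine synthesis, at 3.5, 6.6 and 7.4 RPKM. Of 25 glycolysis genes, 2 were lower, the hexokinase HK2 (41.6, 18.9 and 17.1 RPKM) and the glucose transporter SLC2A1 (98.0, 53.3 and 45.7 RPKM), and 2 were higher, with a median of 0.16 and a length-corrected median of 0.11. Of 27 genes of lipid synthesis, 2 were lower and 2 higher, with a median of 0.24 and a length-corrected median of 0.18. FASN, fatty acid synthase, was one of the lower ones at 49.2, 21.5 and 12.3 RPKM.

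Nuclear and mitochondrial genes of the respiratory chain differed. Of 71 nuclear subunits, 4 lay at least 1.5-fold above the control and 0 below, with a median of 0.37 that came to 0.02 after the length correction. COX7A2, a small subunit of cytochrome c oxidase, stood at 61.4 RPKM in the control, 102.1 under guide 69 and 107.5 under guide 71. Of 13 genes of the mitochondrial genome, 8 were lower and 0 higher, with a median of −1.35 and a length-corrected median of −1.70. MT-ATP8, an ATP synthase subunit, stood at 2295.5, 682.6 and 549.0 RPKM, whereas MT-ND3, a complex I subunit, lay above the control at 1965.9, 2540.3 and 2382.4.

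Quantile normalization limits what can be read at the top of the table. MT-CO1 and MT-CO2 were listed at 27029.4 and 36067.7 RPKM in every library, the values of its highest ranks, so a difference in them could not appear. The 76 cytosolic ribosomal proteins had 10 members at least 1.5-fold above the control and 0 below, and their median of 0.51 came to 0.13 after the length correction. The 68 mitochondrial ribosomal proteins had 8 and 0, with 0.39 and 0.09. For the proteasome, the corresponding counts were 2 and 0 of 35, with 0.25 and 0.01. After the length correction the counts were 3 and 0, 2 and 0, and 0 and 0 in that order.

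Keratins and keratin-associated genes had the highest median of the lists over both guides. With guide 71 alone their median of 0.59 was below those of mitosis (0.95) and DNA replication (0.78), and with every gene of the table it was below both as well. Of 9 compared, 5 lay at least 1.5-fold above the control and 0 below, with a median of 0.85 and a length-corrected median of 0.61. KRT34, a type I hair keratin, stood at 3.2 RPKM in the control, 22.3 under guide 69 and 16.6 under guide 71. KRT17, a keratin of injured epidermis, stood at 1.5, 3.0 and 2.6 RPKM. KRT18, which simple epithelia make, was higher with guide 69 alone, at 76.0, 135.5 and 76.0 RPKM. Of the 13 epithelial markers, KRT8 and KRT18 were in the table and summed to 80.5, 144.1 and 83.6 RPKM, with EPCAM, CDH1 and the claudins not listed, and the part of epithelial cells in the keratin values was not tested.

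The log2 ratios moved with the length of the transcript. Over the 7566 genes with an annotated length, the Spearman correlation across genes, which are not independent replicates, was −0.50 with guide 69 and −0.44 with guide 71. With GC content it was 0.04 and −0.10, and with the mean level 0.04 and 0.02. The median transcript was 1253 bases long among the higher genes and 6286 among the lower, against 2902 over all genes compared. The longest 20% of the genes held 62.8% of the lower ones, and the shortest 20% held 61.2% of the higher ones.

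From the shortest to the longest 20%, the median log2 ratio went from 0.33 to −0.29 with guide 69 and from 0.39 to −0.31 with guide 71. After the length correction, 57 genes lay 2-fold above the control and 151 below it. Of the genes called without it, 38 of 80 higher and 127 of 223 lower ones remained. Some genes went against this order: CA12, GALNT15 and GREM1 lay in the longest 20% and were higher, and 16 genes of the shortest 20% were lower, among them MT2A, IGFBP7, IGFBP2, the lipid-carrying lipocalin APOD and 6 genes of the mitochondrial genome. Which single differences go back to length was not tested.

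Processed pseudogenes, intronless copies of messenger RNAs, held many of the higher genes. Of 37 compared, 20 were higher by 2-fold and 1 was lower, and 22 of the 37 are named after ribosomal protein genes. Some were at the lowest value in the control, such as TMSB4XP4 at 1.0, 3.9 and 3.7 RPKM. These reached the mean of 2 RPKM only through the other libraries, so the filter itself favours higher values among such low genes. RPS23P8 stood at 1.3 RPKM in the control, 5.9 under guide 69 and 6.9 under guide 71, while its parent RPS23 stood at 130.1, 178.4 and 189.4. Reads of such copies and their parents can be split by the alignment, so these values are uncertain. Of 7393 coding genes, 55 were higher and 219 lower, and of 108 long non-coding RNAs 3 and 3.

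Promoters of the genes were searched for short motifs on both strands, from 250 bases before to 50 after the start, in RefSeq sequences that matched 6239 of the genes compared, 43 of the higher and 168 of the lower. The AP-1 motif (TGACTCA or its reverse complement TGAGTCA) was in 2.93% of all these promoters, in 5 of the higher genes (11.6%) and in 8 of the lower (4.76%). The higher ones were C3AR1, DYRK4, LINC00460, S100A2 and S100A3, and the lower ones included MT2A and GJA1, which encodes the gap junction protein connexin 43. The forkhead motif (GTAAACA) was in 2.0% of all, in 1 higher and in 2 lower genes, FENDRR being one of the latter.

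The TATA box (TATAAA) was in 5.11% of all promoters, in 8 of the higher (18.6%) and in 11 of the lower genes (6.55%), and the GC box (GGGCGG) was in 73.5%, 39.5% and 79.8% of the same groups. The ETS motif (CCGGAAG) was in 21.6% of all, 4.65% of the higher and 12.5% of the lower, and the E2F motif (TTCCCGC) in 10.4%, 4.65% and 9.52%. The shares of the CRE motif (TGACGTC) were 6.08%, 4.65% and 7.14%, those of the E-box (CACGTG) 10.7%, 6.98% and 8.93%, and those of the CCAAT box (CCAAT) 37.3%, 39.5% and 32.1%. Such a match is a description of the letters and not a bound site. The promoters of KRT34, S100A3 and MT2A, chosen after their values were seen, are shown because they belong to the highest-ranked gene, to a higher gene with the AP-1 letters and to a lower gene with them. They are RefSeq sequences of GRCh38.p14, written along the gene, at chr17:41382257-41382556 (minus strand), chr1:153549209-153549508 (minus) and chr16:56608334-56608633 (plus). Capitals mark the TATA box 31 bases before the start of KRT34 and the AP-1 motif 225 bases before that of S100A3 and 104 before that of MT2A.
KRT34 promoter: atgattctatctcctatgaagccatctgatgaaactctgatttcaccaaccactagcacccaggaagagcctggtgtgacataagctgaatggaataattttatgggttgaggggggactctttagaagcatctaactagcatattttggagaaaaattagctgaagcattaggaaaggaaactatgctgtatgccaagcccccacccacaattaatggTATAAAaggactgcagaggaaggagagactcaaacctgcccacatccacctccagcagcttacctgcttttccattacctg
S100A3 promoter: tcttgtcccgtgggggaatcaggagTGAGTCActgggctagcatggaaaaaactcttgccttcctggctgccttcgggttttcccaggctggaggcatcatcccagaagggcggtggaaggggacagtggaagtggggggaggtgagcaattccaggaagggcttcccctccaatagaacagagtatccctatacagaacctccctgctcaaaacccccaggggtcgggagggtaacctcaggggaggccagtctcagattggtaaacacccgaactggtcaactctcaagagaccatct
MT2A promoter: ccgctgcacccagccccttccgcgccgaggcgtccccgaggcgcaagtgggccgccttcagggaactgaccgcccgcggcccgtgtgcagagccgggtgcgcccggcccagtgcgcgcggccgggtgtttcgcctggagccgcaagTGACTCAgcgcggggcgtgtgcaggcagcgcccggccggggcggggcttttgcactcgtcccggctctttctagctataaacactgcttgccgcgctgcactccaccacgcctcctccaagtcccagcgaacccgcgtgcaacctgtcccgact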

How the data were processed

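RNA-seq of 4 libraries, 1 per condition, was analysed from the table of RPKM values that the authors deposited. The authors aligned reads to hg19 with TopHat2, counted them per gene with HTSeq, computed RPKM with GENCODE annotation and quantile-normalized the libraries (the sources used here give no tool versions). The deposited RPKM values have 1 decimal and a lowest value of 1. RNA isolation and library kits differ between the sample labels and the study's methods. The deposited table also holds 3 columns of the authors' log2 ratios, which were not used. Read counts were not analysed here, so depth is unknown, and nothing states separate cultures for any condition.

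Log2 ratios of each guide to sgRNA-NT were taken without a pseudocount for genes whose mean in 4 libraries reached 2 RPKM. limma 3.58.1 in R 4.3.3 was fitted to log2(RPKM) of 3 libraries with a mean-variance trend and Benjamini-Hochberg adjustment, two-sided. Tested on simulated data, it recovered set changes in unrounded values only, with settings changed after a first run that recovered none, and nothing is drawn from that test. A lack of calls does not show that genes did not differ. Lengths and positions are those of GENCODE v44 on GRCh37, matched by gene identifier for 12012 of 12033 genes, and the length correction was a lowess curve with a span of 0.3. Where RefSeq gives several starts for a symbol, the first listed promoter was used. Python 3.11.15, pandas 2.3.3, numpy 2.4.6, scipy 1.17.1, statsmodels 0.14.6 and matplotlib 3.10.9 were used.

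The members, the 43 gene lists, the 6 marker lists and the rules were chosen with earlier results of these data known. Named genes are FOXF1, HRAS, CDKN1A, genes above the lowest value within 1 Mb, genes among the 25 highest and 25 lowest whose mean reached 5 RPKM by the smaller ratio of the guides, up to 5 genes at the lowest value on either side, up to 4 members of each list by that same measure, and well-known members by role. PIEZO1, CA12, GALNT15, APOD and the genes named with promoter motifs were chosen after their values were seen. Alternatives were a pseudocount of 1 RPKM, centring, other filters, a 1.5-fold threshold, each guide alone, the length correction and other limma settings.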

Additional observations from a re-analysis of the deposited data

How the results depend on the processing

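Of the 81 higher and 226 lower genes at 2-fold, counts of higher genes were 29 with a pseudocount of 1 RPKM and 29 where the mean reached 5 RPKM, and counts of lower genes 154 and 142. At 1.5-fold the counts were 515 and 656. With a single guide they ranged from 102 (guide 69) to 289 (guide 71) higher and from 251 to 485 lower. Centring gave 54 and 263, every gene 87 and 278, the mean over the 3 libraries compared 79 and 228, and the length correction 57 and 151. limma called 0 genes in either direction with means from 5 RPKM, over the 3 libraries, without a trend or with the pseudocount, 52 higher and 304 lower with every gene, and 649 and 769 without the genes equal in both guides. The log2 ratio of FOXF1 was −1.57 with the pseudocount, −1.74 centred, −1.64 after the length correction and −1.42 or −1.92 with a single guide.

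Of the 43 lists, 3 had a median 1.5-fold or more above the control and 6 below it. The higher ones were 1 with the pseudocount, 0 with every gene and between 1 and 3 with a single guide, and the lower ones between 5 and 8 under every alternative. Of 21 lists with a median log2 ratio of at least 0.3 in size, 19 kept its sign under every alternative, and the exceptions were WNT signalling and the secretory genes, whose medians were 0 with every gene. A kept sign is not a kept size. With the length correction, cytosolic ribosomal proteins went from 0.51 to 0.13 and nuclear respiratory chain subunits from 0.37 to 0.02. DNA replication (0.62 and 0.59) and lysosomal genes (−0.59 and −0.63) changed little.

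No paired analysis was possible because sgRNA-NT has 1 library and the labels carry no replicate numbers. Leaving out a guide leaves limma no residual degrees of freedom, so no test was made with 1 guide. Depth is unknown, and with a lowest value of 1 RPKM in the table, differences below it could not be seen. With 1 control library, a deviation of that library and an effect of the guides cannot be told apart.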

Other observations

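Several other groups are given by their counts past 1.5-fold with both guides. Of 13 genes of RAS and RAF signalling, HRAS and RASA1, a GTPase-activating protein that switches RAS off, were lower and 0 were higher, with a median of 0.24 and a length-corrected median of 0.14. RASA1 stood at 10.2 RPKM in the control, 5.2 under guide 69 and 3.7 under guide 71, while NRAS stood at 6.5, 7.4 and 8.7. Of 14 BCL2 family genes, PMAIP1, the apoptosis promoter NOXA, was the single lower one, at 52.1, 30.2 and 28.0 RPKM, and 0 were higher, with a median of −0.04 and a length-corrected median of −0.12. Of 25 lamin, histone and high-mobility-group genes, 2 were lower and 0 higher, with a median of 0.24 and a length-corrected median of 0.02. LMNB1, the lamin B1 that senescent cells lose, stood at 2.9, 3.9 and 5.5 RPKM, above the control with both guides but within 1.5-fold with guide 69.

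Of 7 genes of the retinoic acid pathway, 2 were higher, the carrier CRABP2 at 19.0, 82.6 and 141.9 RPKM and RARRES3, a phospholipase induced by retinoids, at the lowest value, 2.0 and 3.3 RPKM, and the receptor RARA was lower at 5.6, 3.5 and 2.5. The median of these genes was 0.17 and the length-corrected median 0.14. Of 26 antioxidant and metallothionein genes, 5 were lower (19.2%, against 8.64% of all genes) and 1 was higher. Their median of 0.08 turned to −0.29 after the length correction. The lowest was SOD3, a superoxide dismutase, at 646.3, 200.4 and 128.6 RPKM. The higher one was FTL, the ferritin light chain, at 9620.5 RPKM in the control and 18727.7 with both guides. Quantile normalization gives equal ranks equal values, so the fold of FTL is a step between top ranks and its size is uncertain. The metallothionein MT1E lay on either side of the control at 31.2, 34.6 and 23.6 RPKM. Counts at 1.5-fold were 2 higher and 5 lower of 50 splicing genes, 2 and 3 of 35 translation factors, and 1 and 2 of 34 genes of ribosome biogenesis. Their medians were −0.01, 0.07 and 0.18 in that order, and the last turned to −0.04 after the length correction.

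The guides were at least 1.5-fold apart from the control in opposite directions for 1 gene, MT-TS1, a mitochondrial transfer RNA, at 2.7 RPKM in the control, 4.1 under guide 69 and 1.8 under guide 71.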
